A study of Homo sapiens with 32 samples.

Results

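PMAIP1, MCL1 and 8 relatives of the BCL2 family were followed through a short time course of 4-thiouracil incubation in HEK293 cells. The 10 genes (PMAIP1, BCL2L11, BBC3, BID, MCL1, BCL2L1, BCL2, BCL2L12, BAX and BAK1) were taken by symbol from a count table of 32738 entries. HEK293 is a human embryonic kidney line transformed with adenoviral DNA. 4-Thiouracil is a uracil analogue in which sulfur replaces an oxygen. Cells were incubated for 0, 5, 15 or 30 min, with 2 biological replicates (called cultures here) at each time. Each culture gave 2 cDNA preparations, and each preparation gave 2 tagmentation libraries, which made 32 libraries of poly(A) RNA. The 4 libraries of a culture were summed, so each comparison of 2 times sets 2 cultures against 2 cultures. The spread in these tests was estimated from all 8 cultures and shared across genes, so small p-values rest on more than the cultures compared. The sources do not say what the 0 min cells received, whether labelled RNA was purified, or whether the cultures were grown on separate days. The p-values therefore measure only the spread between the samples deposited. A rise or fall against 0 min is a difference in the RNA sequenced. With purification unknown, it cannot be read as a change of the gene's RNA level in the cells. In a bulk sample, fewer cells of a kind and less RNA per cell cannot be told apart.

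Proteins of the BCL2 family decide whether the outer mitochondrial membrane is opened during apoptosis. The guardians, encoded by MCL1, BCL2L1 (BCL-XL) and BCL2, hold the pore-forming effectors BAX and BAK1 in check. BH3-only proteins, such as NOXA (PMAIP1), BIM (BCL2L11), PUMA (BBC3) and BID, bind guardians or activate effectors and so promote cell death. NOXA binds MCL1 in particular and promotes its degradation. MCL1 and NOXA are both short-lived proteins, and the PMAIP1 and MCL1 genes are known for rapid transcriptional responses to stress and growth signals. BCL2L12 is an atypical member of the family.

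Culture totals were between 776871 and 1396056 counts, and single libraries held between 188686 and 381471. Levels are CPM (counts put on a common library size) after trimmed-mean (TMM) correction for composition. A gene was said to rise or fall where edgeR's quasi-likelihood test gave a Benjamini-Hochberg adjusted p below 0.05 over the 10439 genes that passed a filter on low counts. Of the 10 genes, 9 passed that filter and BCL2 did not. BCL2L1, which had no count at 0 min, passed it only through the later times. Libraries of 1 cDNA preparation differed by less than sampling noise (16 pairs, with a chi-square of 0.327 to 0.594 for each degree of freedom), and those of different preparations by more (1.141 to 2.288 in 32 pairs). The 8 HEK293 marker genes with counts summed to 509 to 621 CPM at 0 min, 381 to 442 CPM at 5 min, 379 to 389 CPM at 15 min and 385 to 422 CPM at 30 min. PAX8 was at 0, as were PTPRC, HBB and CD3E of blood, COL1A2 and DCN of fibroblasts, ALB of hepatocytes and VWF of endothelium. The highest sum in any culture was 0.70 CPM for the blood list, 4.79 CPM for the fibroblast list and 14.6 CPM for the hepatocyte list, the last at 30 min. The part of these marker levels in the results below was not tested.

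Among the 9 tested genes, calls went in both directions early, as they did over all genes. At 5 min, BCL2L11 and BCL2L1 were higher than at 0 min, whereas PMAIP1, BCL2L12, BBC3, BAX and BAK1 were lower. MCL1 and BID did not pass at that time. By 30 min, PMAIP1 and MCL1 were higher than at 0 min as well, and BCL2L12 and BAX remained lower. Against 0 min, 2 members rose and 5 fell at 5 min, where 28.7% of all tested genes rose and 26% fell. At 15 min, 2 rose and 2 fell (all genes, 29.8% and 24.6%). At 30 min, 4 rose and 2 fell (all genes, 32.1% and 23.8%). BCL2L1, kept by the filter only through the later times, is counted among the rises at each of these times. The median log2 fold change of the 9 tested members was -1.27, -0.16 and -0.25 for 5, 15 and 30 min, beside 0.10, 0.19 and 0.35 over all tested genes. Movement among the labelled times was rarer: PMAIP1 alone rose at 15 min against 5 min (1.03% of all genes did), and PMAIP1 and MCL1 rose at 30 min against 15 min (2.26%) and against 5 min (5.88%). No member fell in those 3 comparisons, in which 0.517%, 2.78% and 6.52% of all genes fell. Over the 4 times together, 7 of the 9 tested members, BCL2L1 among them, differed, against 59.0% of all genes. BBC3 (adjusted p = 0.127) and BID (adjusted p = 0.45) did not pass.

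**Figure D1:**
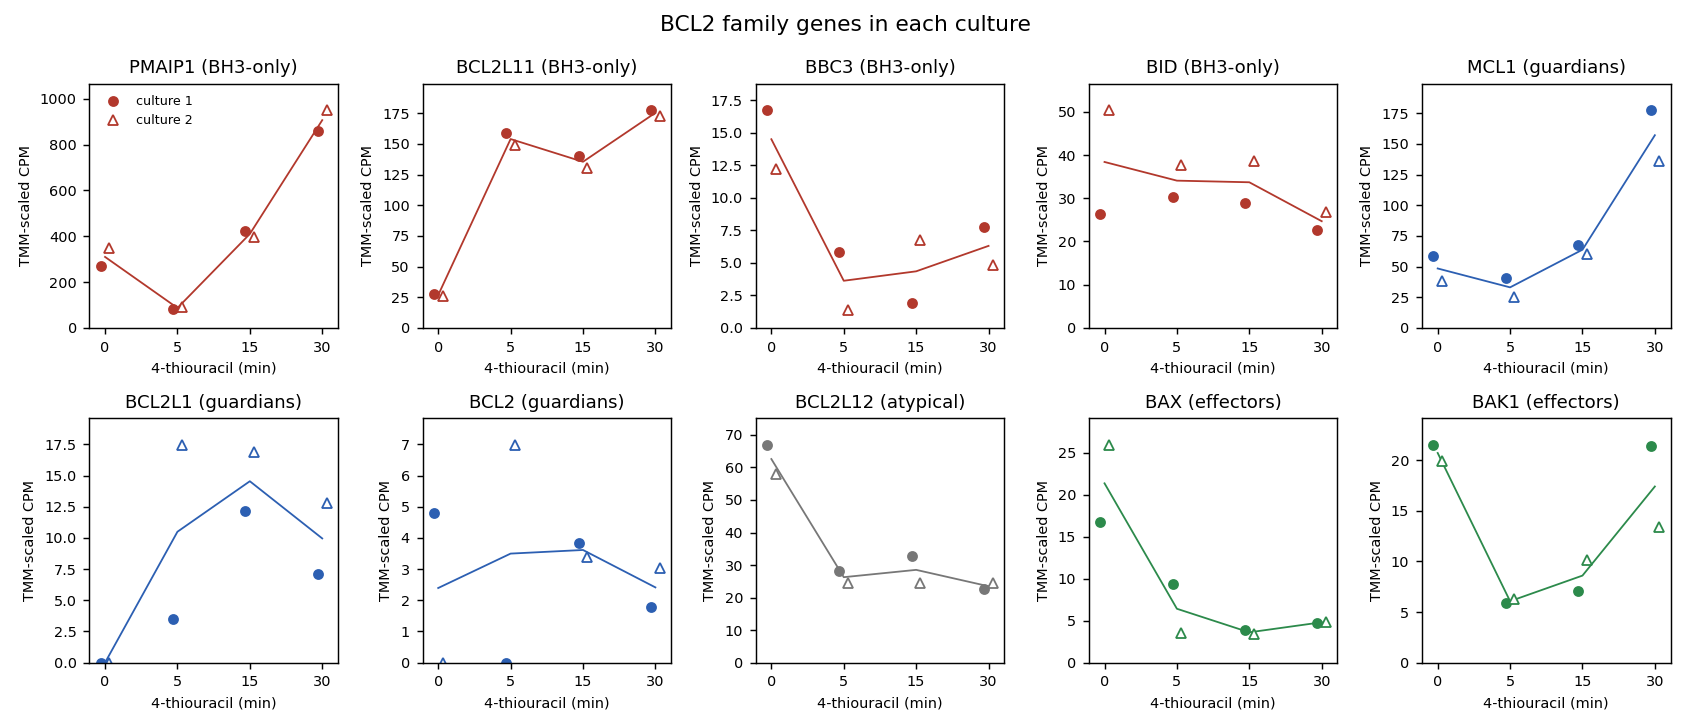
TMM-scaled CPM (linear axis from 0, its own for each gene) of the 10 genes against minutes of 4-thiouracil incubation, with the 4 times evenly spaced, 1 point per culture and a line through the means of 2 cultures; colours mark the role. PMAIP1 dips to a mean of 87.0 CPM at 5 min and reaches 906 CPM at 30 min, BCL2L11 is at 154 CPM by 5 min, and BAX stays below its 0 min cultures at every later time.

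PMAIP1 encodes NOXA, the BH3-only partner of MCL1, and showed a dip followed by a climb. Its level was 271 and 349 CPM in the 0 min cultures, 83.0 and 91.0 CPM at 5 min, 425 and 396 CPM at 15 min, and 861 and 952 CPM at 30 min. The cultures of the 4 times did not overlap. At 5 min it stood at 0.284 of the 0 min level (log2 fold change -1.82, SE 0.20, adjusted p = 3.03e-09). At 15 min it was 0.41 above 0 min on the log2 scale, which missed the threshold (SE 0.18, adjusted p = 0.0546), and at 30 min it was 2.94-fold above 0 min (adjusted p = 5.09e-09). Between labelled times it rose 4.69-fold at 15 min against 5 min (adjusted p = 1.42e-09) and 2.21-fold at 30 min against 15 min (adjusted p = 5.76e-05). The 10.4-fold rise at 30 min against 5 min (log2 fold change 3.37, SE 0.20, adjusted p = 1.34e-14) ranked 59 from the top of 10439 genes. Without 0 min culture 2 the 15 min value was 0.60 (adjusted p = 0.0261), without 15 min culture 2 it was 0.49 (adjusted p = 0.0384) and without the filter 0.50 (adjusted p = 0.0251), all past the threshold. Single libraries carried the same order of times: 48 to 66 PMAIP1 counts at 0 min, 14 to 35 at 5 min, 124 to 179 at 15 min and 335 to 448 at 30 min, with 8 libraries at each time.

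BCL2L11 encodes BIM, a BH3-only protein able to bind every guardian, and it took the opposite course at 5 min. It stood at 27.5 and 26.01 CPM in the 0 min cultures, 159 and 149 CPM at 5 min, 140.2 and 131 CPM at 15 min, and 178 and 173 CPM at 30 min. All 6 cultures given 4-thiouracil lay above both 0 min cultures. The level was 5.71-fold that of 0 min at 5 min (log2 fold change 2.51, SE 0.26, adjusted p = 4.57e-10), 5.03-fold at 15 min (adjusted p = 2.39e-09) and 6.51-fold at 30 min (adjusted p = 3.88e-11). After 5 min no step passed the test: the log2 fold change was -0.18 at 15 min against 5 min (adjusted p = 0.741), 0.37 at 30 min against 15 min (adjusted p = 0.315) and 0.19 at 30 min against 5 min (adjusted p = 0.569). The 8 libraries held 3 to 8 BCL2L11 counts each at 0 min, 28 to 60 at 5 min, 41 to 66 at 15 min and 56 to 85 at 30 min.

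The promoters of PMAIP1 and BCL2L11, which moved in opposite directions at 5 min, and of BAX, which was lower at every later time, are shown as the 250 bases before the annotated start. They come from RefSeq (GRCh38.p14, each on the + strand): PMAIP1 at chr18:59899746-59899995, BCL2L11 at chr2:111120664-111120913 and BAX at chr19:48954625-48954874. Capitals mark matches to 4 motifs searched on both strands: TGACGT, the core bound by ATF and CREB factors; CACGTG, the E box bound by MYC; GGGCGG, the GC box; and TGANTCA, the AP-1 site.
PMAIP1: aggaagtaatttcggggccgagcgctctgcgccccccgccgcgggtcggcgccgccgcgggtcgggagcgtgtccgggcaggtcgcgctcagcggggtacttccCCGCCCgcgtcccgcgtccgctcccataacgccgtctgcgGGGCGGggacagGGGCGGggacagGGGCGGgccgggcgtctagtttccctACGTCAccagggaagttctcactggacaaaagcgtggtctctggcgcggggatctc
BCL2L11: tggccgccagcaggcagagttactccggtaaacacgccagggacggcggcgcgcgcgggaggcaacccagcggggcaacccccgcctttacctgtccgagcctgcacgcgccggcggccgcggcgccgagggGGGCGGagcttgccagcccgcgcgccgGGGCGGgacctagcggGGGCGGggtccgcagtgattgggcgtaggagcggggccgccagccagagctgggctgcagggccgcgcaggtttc
BAX: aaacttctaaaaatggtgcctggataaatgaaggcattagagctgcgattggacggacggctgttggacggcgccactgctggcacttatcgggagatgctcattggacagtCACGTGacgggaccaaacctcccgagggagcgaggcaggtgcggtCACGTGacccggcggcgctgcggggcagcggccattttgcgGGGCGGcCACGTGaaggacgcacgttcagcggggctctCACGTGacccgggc
The PMAIP1 window holds 4 GC boxes and 1 TGACGT, read as ACGTCA on the printed strand and beginning 56 bases before the start. BCL2L11 has 3 GC boxes, which begin 118, 91 and 75 bases before its start. BAX has 1 GC box and 4 E boxes, which begin 138, 93, 45 and 14 bases before its start. None of the printed matches overlap each other. RefSeq windows were matched for 9 of the 10 genes, all except MCL1, and TGACGT was found only in that of PMAIP1. Among all 35116 promoter windows of this length, 7.10% held TGACGT, 6.34% CACGTG, 42.6% GGGCGG and 6.57% TGANTCA. The E box was also found in the 1 window of BBC3 and in 2 of the 5 windows of BID, and the AP-1 site in BBC3 alone. A match is a description of letters, not a bound site.

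BBC3 encodes PUMA, a p53-induced BH3-only protein, and was counted rarely. It had 14 and 8 counts in the 0 min cultures, 5 and 2 at 5 min, 3 and 10 at 15 min, and 13 and 8 at 30 min. The corresponding levels averaged 14.5 ± 3.20, 3.62 ± 3.14, 4.35 ± 3.43 and 6.30 ± 2.02 CPM at 0, 5, 15 and 30 min (SD, n = 2 each). BBC3 fell at 5 min by 2.14 on the log2 scale (SE 0.91, adjusted p = 0.0454), a call lost with the replicate number as a block (adjusted p = 0.0593), with DESeq2 (adjusted p = 0.0574), without 0 min culture 1 (-1.89, adjusted p = 0.156), without 5 min culture 2 (-1.31, adjusted p = 0.306) and without any 1 of the 15 and 30 min cultures (adjusted p = 0.0549 to 0.0642). Against 0 min, its log2 fold change was -1.74 at 15 min (adjusted p = 0.0756) and -1.20 at 30 min (adjusted p = 0.197).

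BID, which links death receptors to mitochondria after cleavage by caspase-8, did not pass the test at any time. It had 26.3 and 50.5 CPM in the 0 min cultures, 30.4 and 37.8 CPM at 5 min, 28.8 and 38.6 CPM at 15 min, and 22.6 and 26.8 CPM at 30 min. The 0 min cultures differed from each other more than the means of the times did. The log2 fold change against 0 min was -0.13 at 5 min (adjusted p = 0.796), -0.16 at 15 min (adjusted p = 0.731) and -0.61 at 30 min (adjusted p = 0.169). Its direction at all 3 times turned under total-count scaling, and without 0 min culture 1 the 30 min value was -1.03 and passed (adjusted p = 0.0361).

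MCL1 encodes the guardian that NOXA binds, and it climbed late. Its level was 58.7 and 38.2 CPM in the 0 min cultures, 40.9 and 25.2 CPM at 5 min, 67.2 and 60.3 CPM at 15 min, and 178 and 136 CPM at 30 min. The 5 min and 0 min cultures overlapped, whereas both 30 min cultures lay above all others. The log2 fold change was -0.63 at 5 min against 0 min (SE 0.32, adjusted p = 0.0983; 0.10 with total counts) and 0.37 at 15 min against 0 min (SE 0.29, adjusted p = 0.275). At 30 min MCL1 was 3.19-fold above 0 min (log2 fold change 1.67, SE 0.27, adjusted p = 2.41e-06). It rose 2.46-fold at 30 min against 15 min (adjusted p = 0.000682) and 4.92-fold at 30 min against 5 min (adjusted p = 1.35e-07, rank 202 from the top). The step of 1.00 on the log2 scale at 15 min against 5 min missed the threshold (SE 0.29, adjusted p = 0.0674) and passed it without either 0 min culture (adjusted p = 0.0359 and 0.036) or the filter (adjusted p = 0.0415). The 5 min value against 0 min passed without 0 min culture 2 (-0.88, adjusted p = 0.0347) or 5 min culture 1 (-0.96, adjusted p = 0.0319). Without 30 min culture 1, the rise over 15 min was 1.10 on the log2 scale and no longer passed (adjusted p = 0.0757). At 0 min the 2 cDNA preparations of culture 1 gave 17 and 32 MCL1 counts, which is 23.8 and 63.7 CPM of their totals.

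BCL2L1 encodes BCL-XL, a guardian that restrains both BAX and BAK1. No BCL2L1 count was seen in any of the 8 libraries at 0 min. The cultures held 3 and 25 counts at 5 min, 19 and 25 at 15 min, and 12 and 21 at 30 min, and 7 of 8 libraries at 5 min had at least 1. Against a floor of 3 counts over both 0 min cultures, the level was at least 6.08-fold higher at 5 min, at least 7.19-fold higher at 15 min and at least 4.93-fold higher at 30 min. It passed the test at each of those times (adjusted p = 0.00147, 0.000517 and 0.00206 at 5, 15 and 30 min). Since BCL2L1 was kept by the filter only through the times at which it is high, these tests are not independent of the filter. The 5 min cultures disagreed: culture 2 alone was at least 8.68-fold above 0 min and culture 1 alone at least 1.74-fold, and without culture 2 the 5 min call was lost (adjusted p = 0.0798).

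BCL2, the founding guardian, was near the limit of detection. It had 4 and 0 counts in the 0 min cultures, 0 and 10 at 5 min, 6 and 5 at 15 min, and 3 and 5 at 30 min. The ratio to 0 min, from summed counts, was 1.63 at 5 min (95% counting interval 0.47 to 7.12), 1.35 at 15 min (0.399 to 5.80) and 0.896 at 30 min (0.24 to 4.07). These intervals cover counting error only and treat the reads of all libraries as independent. Libraries of the same cDNA preparation differed by less than sampling noise, so the intervals may be too narrow. A difference in BCL2 was not detectable at this depth.

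BCL2L12 had 67.0 and 58.1 CPM in the 0 min cultures, 28.1 and 24.5 CPM at 5 min, 32.7 and 24.4 CPM at 15 min, and 22.6 and 24.4 CPM at 30 min. Every later culture lay below both 0 min cultures. It fell to 0.416 of the 0 min level at 5 min (log2 fold change -1.27, SE 0.35, adjusted p = 0.00226), to 0.456 at 15 min (adjusted p = 0.00412) and to 0.375 at 30 min (adjusted p = 0.000517). Using 1 library per cDNA preparation weakened the 5 min value to -0.87 (adjusted p = 0.0507), and leaving out 15 min culture 2 weakened the 15 min value to -0.91 (adjusted p = 0.0685). BCL2L12 overlaps IRF3, which lies on the opposite strand and had 282 counts over the 8 cultures; no source used here says whether the counting used strand, so reads of the pair cannot be told apart. The same holds for the opposite-strand genes MIR4435-2HG at BCL2L11 and ABALON and AL117381.1 at BCL2L1, which were not analysed here, and for GGNBP1 at BAK1, with 4 counts.

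BAX and BAK1, the effectors that form the pore, were both lower at 5 min than at 0 min. BAX was also lower at 15 and 30 min, where BAK1 did not pass. The 2 genes were not tested against each other. BAX had 16.8 and 26.01 CPM in the 0 min cultures, 9.35 and 3.50 CPM at 5 min, 3.84 and 3.39 CPM at 15 min, and 4.76 and 4.87 CPM at 30 min. No later culture reached the 0 min cultures. The fall of BAX was 1.80 on the log2 scale at 5 min (SE 0.76, adjusted p = 0.0429), 2.52 at 15 min (SE 0.77, adjusted p = 0.00583) and 2.12 at 30 min (SE 0.73, adjusted p = 0.0143). These rest on 5 to 8 counts per later culture and 14 and 17 at 0 min. The call was lost at 5 min without filtering (adjusted p = 0.0541) and with the replicate block (adjusted p = 0.0542), without 0 min culture 2 (-1.47, adjusted p = 0.169) or 5 min culture 2 (-1.17, adjusted p = 0.284), and without any 1 of the 15 and 30 min cultures (adjusted p = 0.0559 to 0.0594). It was lost at 15 min without 15 min culture 2 (adjusted p = 0.0516), and at 30 min without 0 min culture 2 (adjusted p = 0.0826), 30 min culture 1 (adjusted p = 0.0813) or 30 min culture 2 (adjusted p = 0.0748).

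BAK1 was at 21.5 and 19.9 CPM in the 0 min cultures, 5.84 and 6.30 CPM at 5 min, 7.04 and 10.2 CPM at 15 min, and 21.4 and 13.4 CPM at 30 min. It was lowest at 5 min, and one 30 min culture lay within the 0 min range. Its log2 fold change against 0 min was -1.75 at 5 min (SE 0.62, adjusted p = 0.0171), -1.27 at 15 min (SE 0.57, adjusted p = 0.0595) and -0.25 at 30 min (SE 0.53, adjusted p = 0.706; 0.61 with total counts). The difference of 1.50 at 30 min against 5 min did not pass (SE 0.59, adjusted p = 0.0934). The 5 min call of BAK1 was lost without 0 min culture 1 (adjusted p = 0.058), 5 min culture 1 (adjusted p = 0.05) or 5 min culture 2 (adjusted p = 0.0677), and RLE size factors brought the 15 min value past the threshold (adjusted p = 0.0424).

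**Figure D2:**
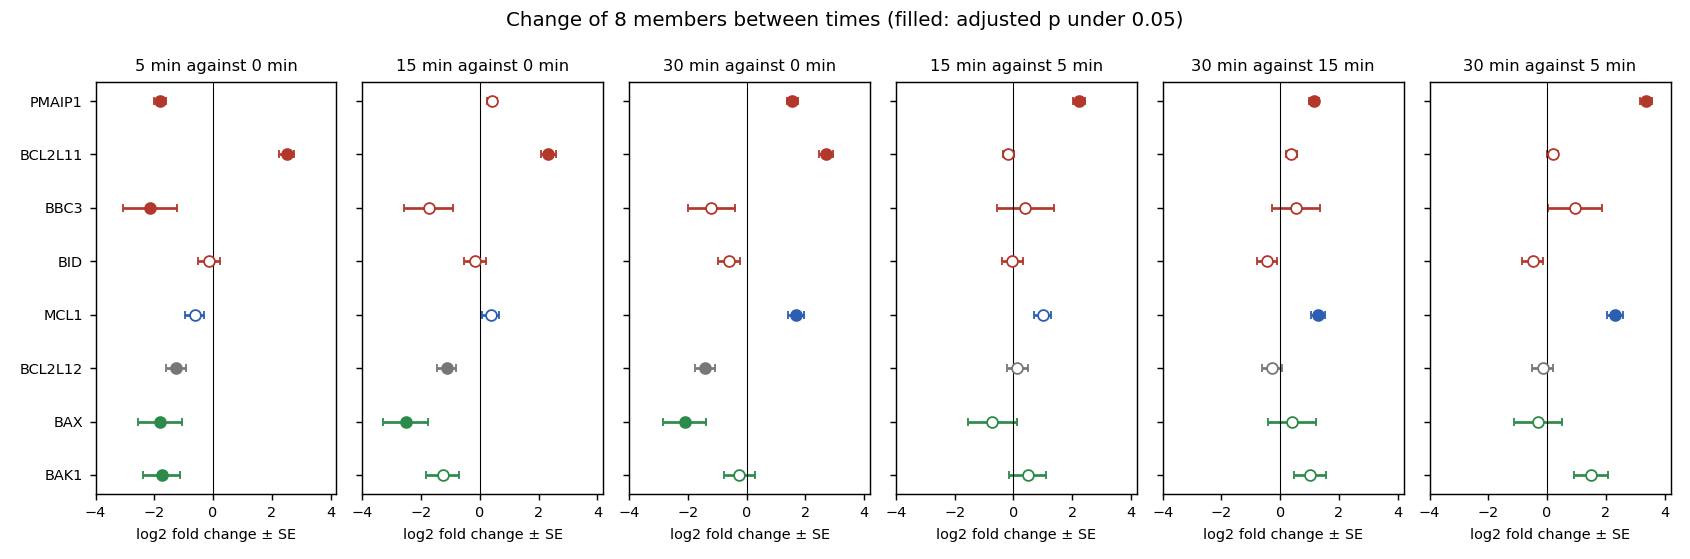
Fitted log2 fold change (x axis, bars 1 standard error) of 8 members in the 6 comparisons between times, filled where the adjusted p was below 0.05; BCL2 (not tested) and BCL2L1 (no count at 0 min) are left out. BCL2L11 is above 0 at all 3 times against 0 min, PMAIP1 crosses from -1.82 at 5 min to 1.55 at 30 min, and BCL2L12 and BAX are below 0 at all 3 times; the unfilled values of MCL1 at 5 min, BID at all 3 times and BAK1 at 30 min turn sign with total-count scaling.

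These directions depend on how libraries are put on one scale. TMM scaling left the median log2 fold change of all genes at 0.10, 0.19 and 0.35 for 5, 15 and 30 min against 0 min, whereas scaling by total counts alone moved it to 0.83, 0.95 and 1.22. With total counts the log2 fold changes of BCL2L12 (-0.54), BBC3 (-1.42), BAX (-1.07) and BAK1 (-1.03) at 5 min no longer passed, nor did those of BCL2L12 and BAX at 15 and 30 min. PMAIP1 still fell at 5 min (-1.08), and PMAIP1 (1.19) and MCL1 (1.14) then passed at 15 min. Another scaling shifts all genes by about the same amount, so values measured from the median gene are nearly equal under both by construction and do not bear on which scaling holds. On that measure, at 5 min PMAIP1 stood at -1.92 with TMM and -1.91 with total counts, BCL2L11 at 2.41 with both and BCL2L12 at -1.37 with both. At 30 min PMAIP1 stood at 1.21 with TMM and 1.22 with total counts, and MCL1 at 1.33 and 1.32.

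The make-up of the family's counts differed between times in a measure that needs no library scaling. PMAIP1 held 56.6 ± 5.03%, 23.9 ± 1.67%, 58.0 ± 1.04% and 68.2 ± 3.14% of the counts of the 10 genes at 0, 5, 15 and 30 min (SD, n = 2 cultures each). BCL2L11 held 4.94 ± 0.65%, 42.2 ± 1.70%, 19.2 ± 0.34% and 13.2 ± 0.59% at the same times, so that at 5 min it outnumbered PMAIP1. MCL1 held 9.05 ± 3.47%, 9.06 ± 3.00%, 9.02 ± 0.41% and 11.9 ± 2.50%. The effectors BAX and BAK1 together held 7.71 ± 0.29%, 3.43 ± 1.03%, 1.73 ± 0.32% and 1.68 ± 0.46%. BCL2L12 held 11.6%, 7.21%, 4.03% and 1.77%. No test was run on these shares. They are shares of counts and are not adjusted for transcript length. A share of a fixed whole also falls where another gene rises. Between 5 and 30 min the mean level went from 87.0 to 906 CPM for PMAIP1 and from 154 to 175 CPM for BCL2L11. It went from 26.3 to 23.5 CPM for BCL2L12 and from 12.5 to 22.2 CPM for the effectors.

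PMAIP1 had 4.61 and 9.12 counts for each MCL1 count in the 0 min cultures, 2.03 and 3.61 at 5 min, 6.31 and 6.56 at 15 min, and 4.84 and 6.98 at 30 min. The 5 min cultures were the lowest, and the cultures of the other 3 times overlapped. By role, the BH3-only genes summed to 389 ± 68.1, 279 ± 0.69, 584 ± 16.9 and 1113 ± 61.4 CPM at 0, 5, 15 and 30 min. The guardians summed to 50.8 ± 17.8, 47.0 ± 3.72, 81.9 ± 1.87 and 169 ± 24.4 CPM at the same times. The effectors summed to 42.1 ± 5.37, 12.5 ± 3.82, 12.2 ± 1.88 and 22.2 ± 5.59 CPM. These sums mostly follow single genes: at 30 min PMAIP1 gave 906 CPM of the BH3-only sum and MCL1 157 CPM of the guardian sum. At 5 min PMAIP1 was at 87.0 CPM and BCL2L11 at 154 CPM. BBC3 averaged 14.5 CPM at 0 min and 6.30 CPM at 30 min, and BID 38.4 and 24.7 CPM, neither past the test.

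**Figure D3:**
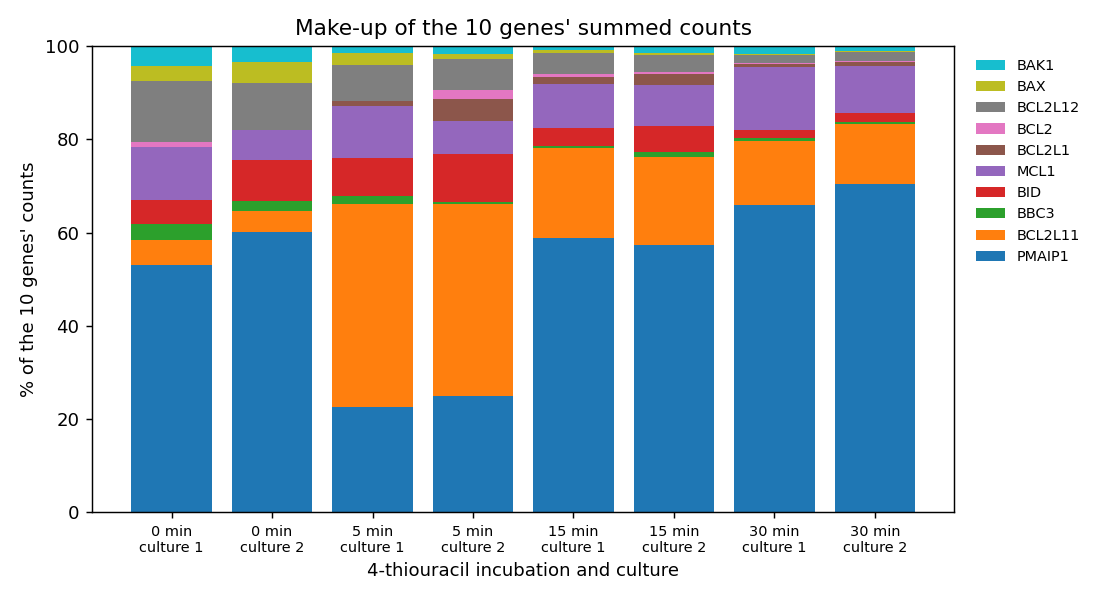
Stacked bars of the percent of the 10 genes' summed counts held by each gene, 1 bar per culture in order of time. PMAIP1 holds 53.1% and 60.2% in the 0 min cultures, 22.7% and 25% at 5 min and 66.0% and 70.4% at 30 min, and BCL2L11 is the largest part in both 5 min cultures with 43.5% and 41.0%.

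The genes whose pattern over the 8 cultures came closest to that of PMAIP1 were SAT1, RGS2, SGK1, CXCR4 and GADD45B, out of 8628 candidates. Likeness was the root mean square difference in centred log2(CPM + 1), which was 0.193 for SAT1, 0.238 for RGS2, 0.258 for SGK1, 0.262 for CXCR4 and 0.31 for GADD45B. SAT1, which acetylates polyamines, averaged 161, 63.6, 257 and 586 CPM at 0, 5, 15 and 30 min. CXCR4, a chemokine receptor, averaged 85.6, 17.9, 119 and 269 CPM, and SGK1, a serum- and glucocorticoid-induced kinase, 29.3, 5.84, 29.2 and 83.0 CPM. Each of these genes was lowest at 5 min and highest at 30 min, as PMAIP1 was. RGS2, a regulator of G protein signalling, also has a TGACGT in its promoter window, and the other 4 have none. Closest to MCL1 were ERRFI1 (0.216), HEY1 (0.27), TBCC (0.289), FOXA1 (0.293) and SHISA2 (0.301). HEY1, a Notch-induced repressor, averaged 69.2, 51.8, 112 and 245 CPM, and ERRFI1, a feedback inhibitor of the EGF receptor, 11.2, 10.5, 18.4 and 39.4 CPM. These genes were picked for their likeness, so no test applies.

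**Figure D4:**
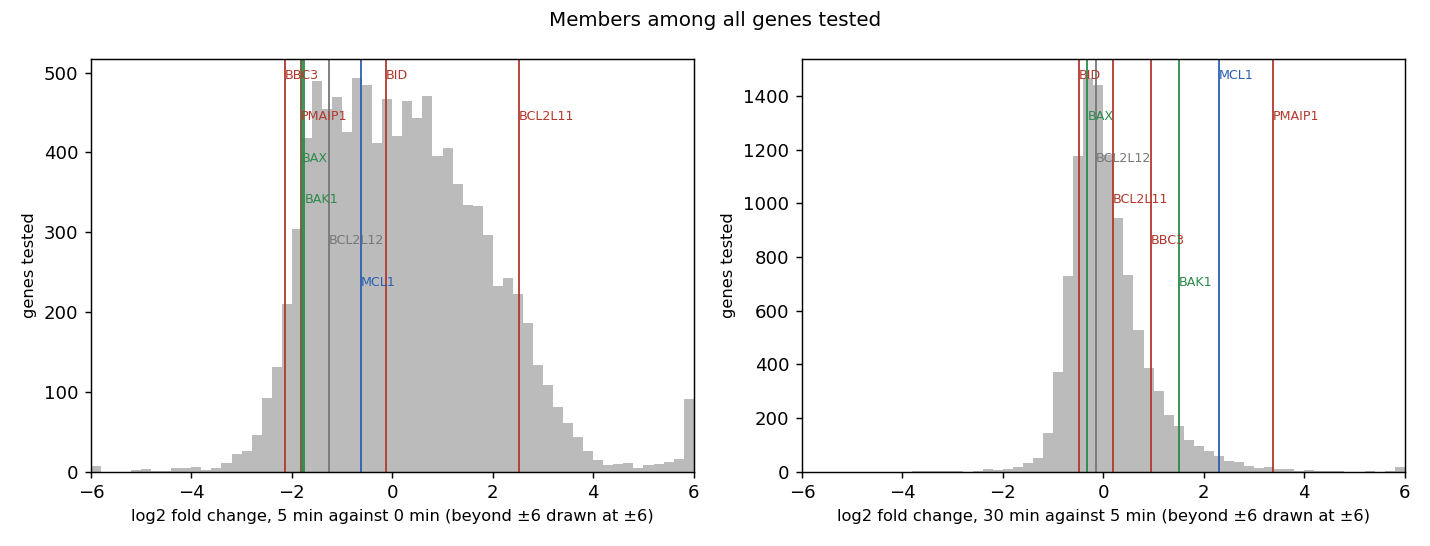
Histograms of the log2 fold change of all 10439 tested genes (grey, number of genes on the y axis) at 5 min against 0 min and at 30 min against 5 min, with vertical lines at 8 members. At 5 min PMAIP1 (-1.82) lies in the lower part of a broad distribution and BCL2L11 (2.51) in the upper part, and at 30 min against 5 min PMAIP1 (3.37) and MCL1 (2.30) lie in the upper tail.

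Gene length varied widely within the family. PMAIP1 spans 4310 bases and MCL1 5053 in the RefSeq annotation (GRCh38.p14), against 47532 for BCL2L11, 59512 for BCL2L1 and 196745 for BCL2, while the median tested gene spans 36127. BAX (6924), BAK1 (7725), BCL2L12 (8775) and BBC3 (12037), which fell at 5 min with PMAIP1, are also short. Neither MCL1, though short (log2 fold change -0.63, adjusted p = 0.0983), nor BID, at 40528 bases, passed at 5 min. As a description across genes, which share libraries and are not independent, Spearman's rho between span and log2 fold change at 5 min against 0 min was 0.65 over the 9 tested members and 0.556 over 9201 matched genes. For 30 min against 0 min it was 0.317 over the members and 0.418 over all, and for 30 min against 5 min -0.6 over the members and -0.274 over all. The 9 members include BCL2L1, the longest of those tested. It had no count at 0 min and passed the filter only through the later times, so its fold change against 0 min has no measured base. No rho was computed without BCL2L1, so the member values against 0 min may rest on it.

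Other genes of the pathway were read from 5 lists. Among transcription factors known to act on BCL2 family genes, 15 of 17 were tested. Against 0 min, 4 rose and 3 fell at 5 min (all genes, 28.7% and 26%), 6 rose and 3 fell at 15 min (29.8% and 24.6%), and 8 rose and 1 fell at 30 min (32.1% and 23.8%). Between labelled times, 5 rose and 0 fell at 15 min against 5 min (all genes, 1.03% and 0.517%), and 6 rose and 0 fell at 30 min against 15 min (2.26% and 2.78%). At 30 min against 5 min 6 rose and 1 fell (5.88% and 6.52%), where the median log2 fold change was 0.62 over the list and -0.03 over all genes. ATF3, a stress-induced factor, averaged 9.71 ± 3.58, 13.2 ± 7.08, 74.6 ± 5.88 and 235 ± 57.0 CPM at 0, 5, 15 and 30 min and rose by 4.04 on the log2 scale at 30 min against 5 min (adjusted p = 3.37e-12). JUN (3.27), MYC (3.07) and SRF (2.62) rose in the same comparison. ATF4, the factor of the integrated stress response known to act on PMAIP1, averaged 584 ± 7.57, 119 ± 8.38, 234 ± 29.3 and 523 ± 23.3 CPM. It fell at 5 min against 0 min (log2 fold change -2.28, adjusted p = 5.68e-12) and rose at 30 min against 15 min (1.16, adjusted p = 4.26e-05). DDIT3, which encodes the ATF4 target CHOP, fell at 5 min by 1.82, whereas HIF1A rose by 2.52 and FOXO3, a known activator of BCL2L11, by 2.09.

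Of 21 p53 target genes other than the members, 18 were tested. Against 0 min, 3 rose and 1 fell at 5 min, 5 rose and 1 fell at 15 min, and 6 rose and 2 fell at 30 min; of all genes, 28.7%, 29.8% and 32.1% rose and 26%, 24.6% and 23.8% fell, so the rises in this list were near or below that background. At 5 min SESN1 (2.28), MDM2 (1.77) and SESN2 (1.40) rose and CCNG1 (-1.51) fell on the log2 scale. BTG2, an antiproliferative gene, rose by 4.02 at 30 min against 5 min (SE 0.39, adjusted p = 2.01e-09). In that comparison 2 of the 18 rose and 0 fell (all genes, 5.88% and 6.52%). The other was AEN (0.97, adjusted p = 0.0294), a nuclease gene, whose call was lost without 5 min culture 2 (0.61, adjusted p = 0.346), 30 min culture 1 (0.85, adjusted p = 0.248) or 30 min culture 2 (1.08, adjusted p = 0.0943) and with DESeq2 (adjusted p = 0.143). The 5 min rise of SESN2 was lost with 1 library per cDNA preparation (0.97, adjusted p = 0.0727).

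The apoptosome, caspases and their inhibitors, with 16 of 20 tested, had 3 rises and 8 falls at 5 min against 0 min (all genes, 28.7% and 26%), 3 rises and 8 falls at 15 min (29.8% and 24.6%), and 3 rises and 7 falls at 30 min (32.1% and 23.8%). The median log2 fold change at 5 min was -1.02 over this list and 0.10 over all genes. CYCS, which encodes cytochrome c, averaged 894 ± 214 CPM at 5 min and 3777 ± 205 CPM at 0 min and fell by 2.08 on the log2 scale (adjusted p = 1.89e-09). BIRC5 (survivin) fell by 2.21, whereas BIRC6, a giant inhibitor of apoptosis, rose by 2.41 (adjusted p = 6.69e-12). CASP9, the apoptosome's initiator caspase, had 0 and 11 counts in the 5 min cultures and 21 and 16 in the 0 min cultures. The scaled ratio of the summed counts (11 and 37) was 0.194 (95% counting interval 0.0891 to 0.388, with the limits given for BCL2). Its call was lost without 5 min culture 1 (log2 fold change -1.68) and with total counts (-1.72, adjusted p = 0.0545). Of genes acting on the turnover of MCL1, NOXA and BAK proteins or binding them, 14 of 15 were tested. Against 0 min, 6 rose and 4 fell at 5 min (all genes, 28.7% and 26%), 5 rose and 4 fell at 15 min (29.8% and 24.6%), and 6 rose and 4 fell at 30 min (32.1% and 23.8%). GSK3B, which phosphorylates MCL1 (log2 fold change 3.24), and FBXW7 (2.50) and CUL5 (2.37), both parts of ubiquitin ligases, rose, and VDAC1, a mitochondrial channel, fell by 2.65.

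Of 15 other BCL2 family and BNIP genes, 7 were tested. At 5 min against 0 min 1 rose and 4 fell (all genes, 28.7% and 26%), at 15 min 1 rose and 1 fell (29.8% and 24.6%), and at 30 min 1 rose and 2 fell (32.1% and 23.8%). BNIP3L, a mitophagy receptor, fell by 2.27 at 5 min (adjusted p = 3.26e-06), and its log2 fold change was -2.31 at 15 min and -2.55 at 30 min. BNIP1 fell by 1.44 at 5 min, a call lost with total counts (-0.71, adjusted p = 0.0797). No gene of this list passed between labelled times. The guardian BCL2A1 and the genes BCL2L10 and BOK had no count in any culture, and BMF, a BH3-only gene, had 14 counts over the 8 cultures.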

How the data were processed

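Per the labels' protocols, HEK293 cells were grown after a published transient transcriptome method and libraries after a published tagged reverse transcription protocol for single cells. STAR and hg19 are named in the submitters' processing notes. The authors deposited 1 table of raw read counts per gene; the counter, strand use and molecular identifiers are not given in these sources. In 4 libraries the tagmentation number differed between table and label; their cultures agreed, so culture sums are unaffected. The 91 symbols on more than 1 entry kept separate entries.

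Counts of the 4 libraries of a culture were summed and fitted with edgeR 4.0.16 in R 4.3.3 (filterByExpr, TMM, quasi-likelihood F test, two-sided) over 8 cultures and 10439 genes, with p-values adjusted over all of them by contrast. The common dispersion was 0.0235 (biological coefficient of variation 15.3%) with 4 residual degrees of freedom. The test also shares the estimate of spread across genes, so its p-values can be smaller than those 4 alone would allow. With 2 cultures a time, low counts limit the precision. Alternatives were total-count and RLE scaling, no filter, the replicate block, 1 library per cDNA preparation, each culture left out, 4 cultures only, and DESeq2 1.42.0.

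The members and lists were chosen with earlier results of these data known. All members are named; from each list, up to 4 genes per contrast with the largest change among those past the test, at a mean of at least 10 CPM and without overlap between cultures, could be named. BCL2A1, BCL2L10, BOK and BMF were named after their values were seen. RefSeq and GENCODE annotation of GRCh38 served only for promoters, spans and overlaps.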

Additional observations from a re-analysis of the deposited data

How the results depend on the processing

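Of 22 member log2 fold changes past the test as reported, 12 passed under every alternative: PMAIP1 at 5 and 30 min against 0 min and in the 3 comparisons between labelled times, BCL2L11 at the 3 times against 0 min, MCL1 at 30 min against 0 and 5 min, and BCL2L1 at 15 and 30 min. BCL2L1 passed the filter only through the times at which it is high, so its place among them is not independent of the filter. Of 583 alternative values over 39 member results, 523 kept direction and side of the threshold, 37 lost the call, 13 gained it and 10 turned. Those 39 cover all tested members against 0 min, but only PMAIP1, MCL1, BCL2L11 and BAK1 between labelled times. With total counts, MCL1 at 5 min against 0 min turned to 0.10, BID to 0.61 at 5 min, 0.61 at 15 min and 0.27 at 30 min, and BAK1 at 30 min to 0.61. Leaving out 1 culture turned BID at 5 min (0.39 without 0 min culture 2, 0.0060 without 5 min culture 1; range -0.55 to 0.39), BID at 15 min (0.35 without 0 min culture 2, 0.034 without 15 min culture 1; range -0.58 to 0.35) and BAK1 at 30 min (0.044 without 30 min culture 2; range -0.63 to 0.044). With total counts, 3 members passed at 5 min (2 higher, 1 lower) and 4 over the times together. At 15 min against 5 min, 2 members passed without the filter and with 4 cultures only, MCL1 being the second. Calls over all genes then numbered 317 with 4 cultures only and 104 with DESeq2, against 162, and 914 with 4 cultures only at 30 min against 15 min, against 526. With total counts, 4452 genes rose and 1456 fell at 5 min, 4880 and 1319 at 15 min, and 5598 and 1343 at 30 min, against 2998 and 2712, 3110 and 2573, and 3352 and 2485 with TMM. The cause was not tested.

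With each culture left out in turn, the members called ranged from 3 to 7 at 5 min, 3 to 5 at 15 min and 5 to 7 at 30 min against 0 min, and from 5 to 7 over the times together. They ranged from 1 to 2 at 15 min against 5 min and at 30 min against 15 min, and were 2 at 30 min against 5 min. The genes called ranged from 54 to 270, from 123 to 632 and from 452 to 1622 in those 3 comparisons. The low values came without a culture of a time compared. Where that leaves 1 culture, it is assumed to vary like the other times.

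Same-numbered cultures deviated together with correlations from -0.031 to 0.077, so the numbers are not shown to pair them. With the replicate block, 5 members were called at 5 min (2 higher, 3 lower), 4 at 15 min and 6 at 30 min against 0 min, 1, 2 and 2 between labelled times, and 7 over the times together. Of 79 other named gene results, 59 passed under every alternative and none turned. Those 79 were picked for a large change past the test without overlap between cultures. Their stability is thus partly set by the choice and is not comparable with that of the members. Members with under 20 counts in a culture (BBC3, BAX, BAK1, BCL2L1, BCL2, and BCL2L11 with 23 and 17 at 0 min) are limited by depth. The BCL2L1 calls against 0 min also rest on a gene that passed the filter only through the later times.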
